A study of Mus musculus with 10 samples.

Results

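Expression of 43 genes of hypoxia signalling and glycolysis was examined in a mouse model of gliomagenesis, out of 23230 features in the deposited RNAseq table. The genes were listed by symbol and not by a threshold on their values, and were grouped by role into 7 HIF regulators, 2 glucose transporters, 13 glycolytic enzymes, 2 enzymes of fructose-2,6-bisphosphate, 5 genes of lactate and pyruvate fate, 2 carbonic anhydrases and 12 other HIF target genes. All 43 symbols were found in the table, and each reached at least 1 FPKM (fragments scaled to the length of the transcript and to the mapped total of the library) in some library, so 0 members were unmeasured.

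The model starts from cortical astrocytes of C57BL/6 pups at postnatal day 5 that lack p16 and p19, the products of Ink4a/Arf, and carry human EGFRvIII, the constitutively active EGFR mutant written as EGFR*. The 3 libraries of AstroEGFR* came from 3 batches of these astrocytes, grown in medium with serum and added glucose. The 4 libraries of PT came from glioma propagating cells cultured from tumours that such astrocytes formed in CD1 Nude mice, grown without serum on laminin with EGF and FGF2. PT1 and PT4 trace to astrocyte batch 1, PT2 to batch 2 and PT3 to batch 3. The 3 libraries of AstroEGFR* Zfp423 came from the same 3 batches after infection with a vector for Zfp423. All groups thus share the Ink4a/Arf loss and EGFR*, and all cells were used before passage 10. The tumour step and the change of medium cannot be told apart, and the oxygen level of the cultures is not given in the sources used here.

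Hypoxia-inducible factor (HIF) is a pair of an oxygen-regulated alpha subunit, Hif1a or Epas1 (HIF-2 alpha), and the constant partner Arnt. In the presence of oxygen, the prolyl hydroxylases Egln1, Egln2 and Egln3 mark the alpha subunits for the ubiquitin ligase of Vhl, so HIF is mostly set by protein stability and not by mRNA. Its targets include the glucose transporter Slc2a1, most glycolytic enzymes, Pdk1, which holds pyruvate back from conversion to acetyl-CoA, and Vegfa, and aerobic glycolysis and pseudopalisades of hypoxic cells are known features of high-grade glioma. Transcript levels in FPKM bear on none of the enzyme activities, metabolite fluxes or HIF protein.

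The files give no read counts, and depth per library is thus unknown. AstroEGFR*3 and PT3, both of batch 3, listed 14813 and 14075 features above 0, against 15794 to 17030 in the other 8 libraries. A rough depth relative to PT1, read from the most frequent ratio of low values, was 0.0728 in AstroEGFR*3 over 43 features and 0.138 in PT3 over 38 features, against 0.507 to 0.982 in the other 7. AstroEGFR*1, PT1 and PT4, all of batch 1, had summed FPKM of 361102 to 376269, against 467575 to 860068 in the other libraries. Gapdh was at 0.0106 to 0.0206 FPKM in them and at 1.16 to 50.1 FPKM elsewhere. In splits of PT by batch, library differences and batch 1 thus cannot be told apart. Zfp423 was at 15.7, 9.73 and 105 FPKM in AstroEGFR* Zfp423 and at 3.25 to 4.30 FPKM in AstroEGFR*, as labelled, while Cdkn2a was listed at 3.96 to 130 FPKM in all 10 libraries, a gene-level value that does not tell whether the deleted part was read. The summed level of 9 astrocyte markers was 1330 to 1770 FPKM in AstroEGFR*, 410 to 3330 FPKM in PT and 59.7 to 2810 FPKM in AstroEGFR* Zfp423. The lowest value was that of AstroEGFR*2 Zfp423, where Fabp7 was at 0.316 FPKM but Gja1 at 52.2 FPKM. The summed level of 7 glioma and neural progenitor markers was 2950 FPKM in that library, with Vim at 2830 FPKM and Olig2 at 0. It was 2850 and 4420 FPKM in AstroEGFR*1 Zfp423 and AstroEGFR*3 Zfp423. The summed level of 7 fibroblast and meninges markers was 350 to 5550 FPKM in AstroEGFR*, 12.2 to 577 FPKM in PT and 240 to 6550 FPKM in AstroEGFR* Zfp423, and that of 7 microglia and macrophage markers was 463 and 287 FPKM in AstroEGFR*1 Zfp423 and AstroEGFR*2 Zfp423 against 0.156 to 38.6 FPKM in the other 8 libraries. In such cultures, fewer cells of a type and less RNA per cell cannot be told apart, and the part of these cell types in the results was not tested.

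**Figure D1:**
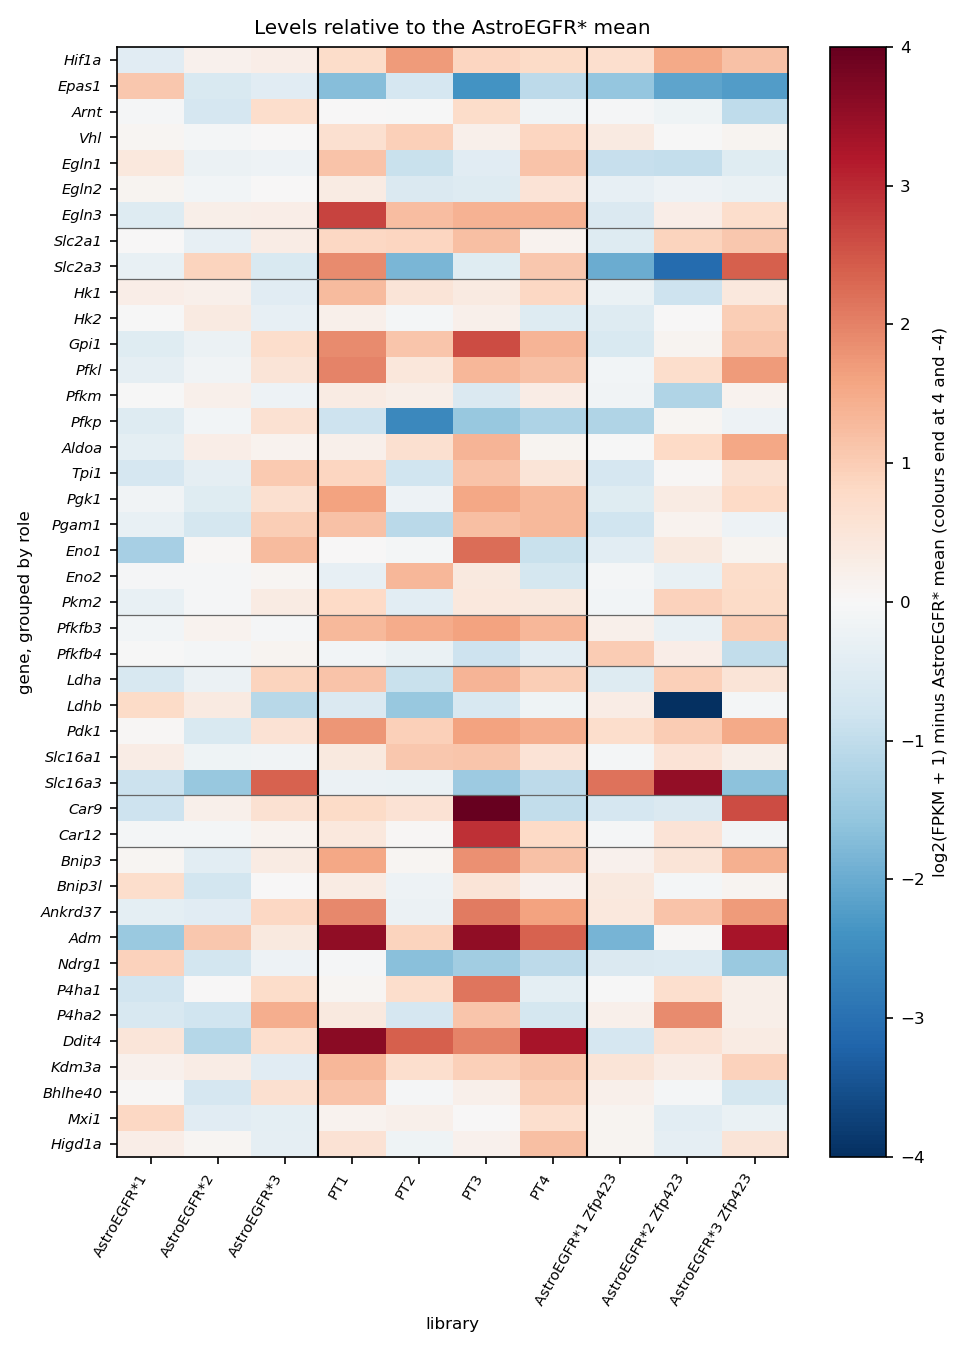
Level of each of the 43 genes (rows, grouped by role) in each of the 10 libraries (columns), as log2(FPKM + 1) minus the mean of the 3 AstroEGFR* libraries, red for higher and blue for lower. PT1, PT3 and PT4 are mostly red from Gpi1 to Ddit4, with library medians of 0.73, 0.95 and 0.67, while PT2 has a median of 0.00.

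The first comparison asked how the programme differs between tumour-derived PT and the astrocytes they came from. The glycolytic activator Pfkfb3 was the only member that passed the test, 2.68-fold higher in PT, and most other members lay on the same side without passing. Of the 43 members tested, 1 (Pfkfb3) had an adjusted p under 0.05 in limma, against 1.24% of the 12261 features tested. At an unadjusted p under 0.05, 14 members were higher in PT, against 5.88% of all features, and 2 were lower, Epas1 and Pfkp, against 7.69%. The log2 fold change was above 0 in 35 of the 43 members, against 52.1% of all features, and its median was 0.58 over the members and 0.03 over all features. By role, 5 of 7 HIF regulators, 2 of 2 glucose transporters, 11 of 13 glycolytic enzymes, 1 of 2 enzymes of fructose-2,6-bisphosphate, 3 of 5 genes of lactate and pyruvate fate and 11 of 12 other HIF targets had a value above 0. Of the carbonic anhydrases, Car9 and Car12 are also among the 35, but Car12 was under 1 FPKM in 9 of the 10 libraries and passed the filter on the mean only through PT3, so its sign counts for nothing here or in the counts below.

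The same picture was seen without a model. All 4 PT lay above all 3 AstroEGFR* for 10 members, Hif1a, Vhl, Egln3, Hk1, Gpi1, Pfkfb3, Pdk1, Slc16a1, Ddit4 and Kdm3a, against 6.95% of all features. All 4 lay below for 3 members, Epas1, Pfkp and Pfkfb4, against 7.81%. Set against the AstroEGFR* of its own batch, every PT was higher for 18 members, Car12 included, against 21.7% of all features, and every PT was lower for 4 members, Epas1, Pfkp, Pfkfb4 and Ndrg1, against 18.2%. Within batches, 35 members were higher in PT1, 30 in PT4, 27 in PT2 and 33 in PT3, with median log2 differences of 0.99, 0.71, 0.33 and 0.51. Over all features the shares were 51.6%, 52.4%, 49.2% and 51.6%, with medians of 0.02, 0.04, -0.01 and 0.03.

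With the astrocyte batch as a block in the fit, 4 members passed, Ddit4, Gpi1, Pdk1 and Pfkfb3, all higher in PT, against 3.87% of all features. The batch-matched libraries deviated together from their group means, so the blocked values stand beside the others here. Once AstroEGFR*3 and PT3 were left out, 0 members passed without or with the block (8 and 5 features in all). The log2 fold changes with the block were then 1.38 for Pfkfb3, 3.22 for Ddit4, 1.77 for Gpi1 and 1.57 for Pdk1, against 1.46, 2.65, 1.81 and 1.40 with all 7 libraries. Without batch 3 and without the block the median over the members was 0.56, against 0.03 over all features, and 9 members were higher and 1 lower at an unadjusted p under 0.05, against 10.8% of all features in either direction. When any 1 of the 7 libraries was left out, 0 members passed.

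**Figure D2:**
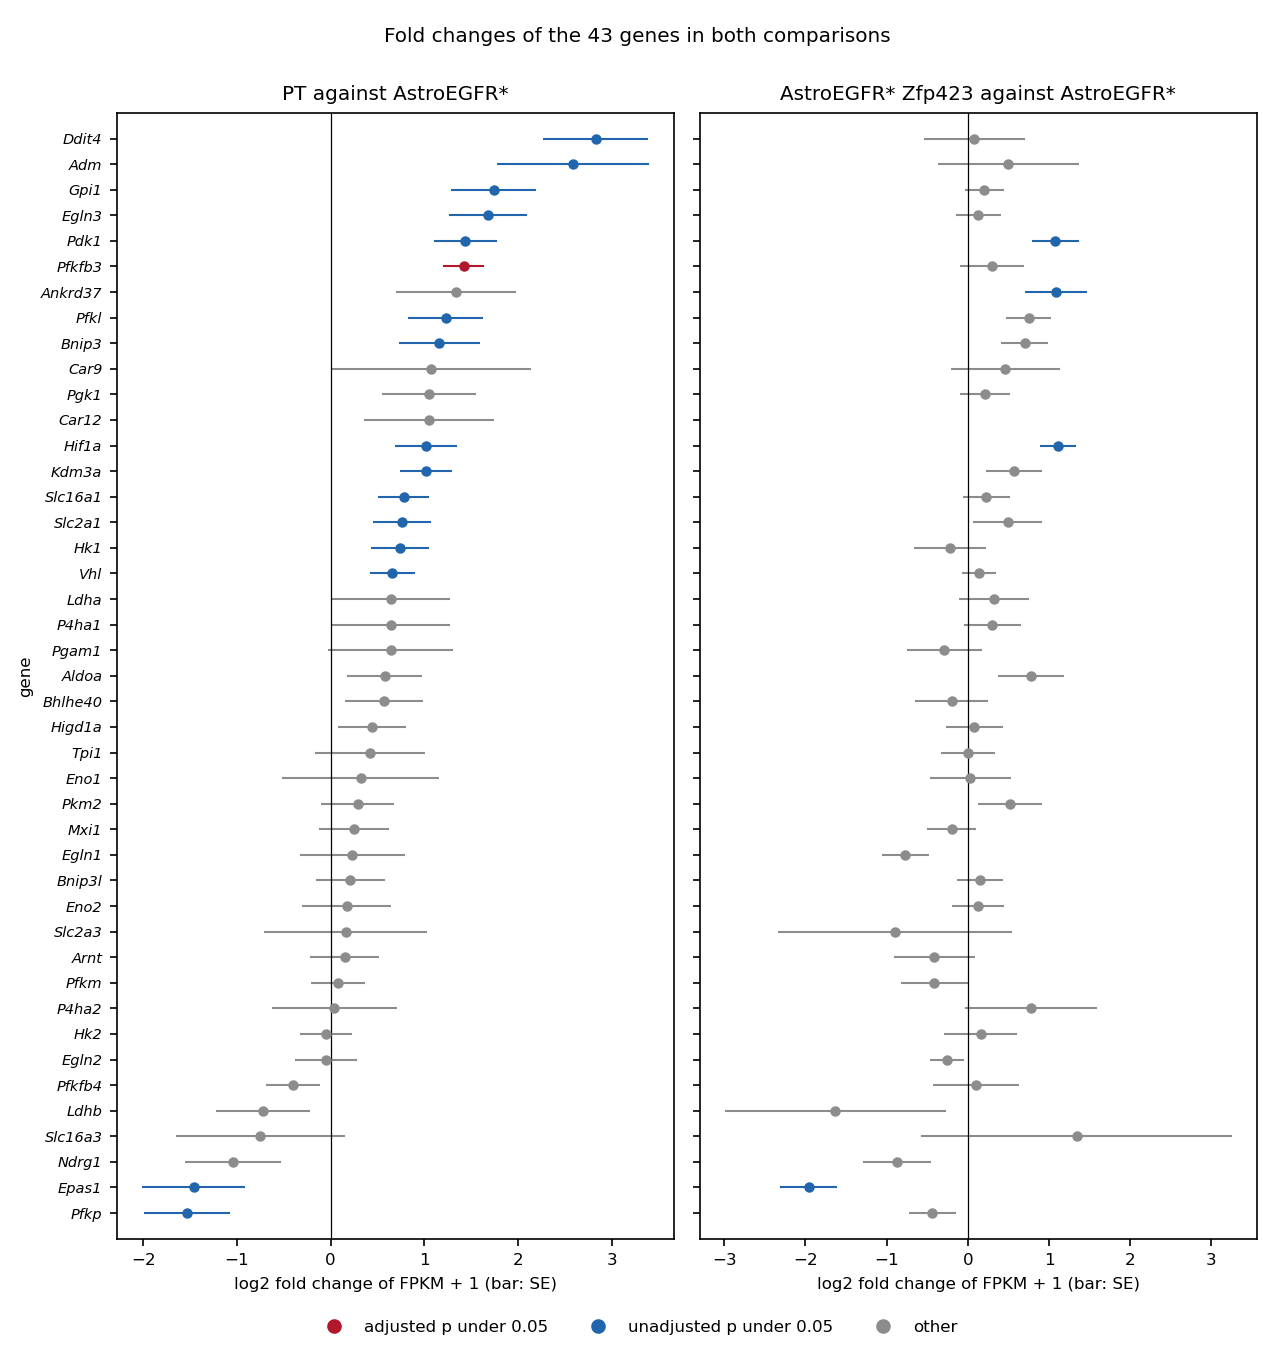
Log2 fold change of each of the 43 genes on the scale of log2(FPKM + 1) with its SE, for PT (n = 4) against AstroEGFR* (n = 3) on the left and AstroEGFR* Zfp423 (n = 3) against AstroEGFR* (n = 3, batch as a block) on the right. On the left 35 points lie above 0 and 1 is red for an adjusted p under 0.05 (Pfkfb3), and on the right 29 of 42 lie above 0 and 0 are red.

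Among the HIF regulators, the 2 alpha subunits lay on opposite sides. Hif1a was at 27.1, 42.5 and 45.0 FPKM in AstroEGFR* (in the order of batches 1, 2 and 3) and at 62.8, 124, 69.0 and 64.5 FPKM in PT (in the order PT1, PT2, PT3, PT4, kept for all genes). Its lowest PT value lay above its highest AstroEGFR* value, and PT2 was highest. The log2 fold change was 1.02 ± 0.33 (SE), with an adjusted p of 0.222 in limma. Epas1, the alpha subunit known from endothelium and from glioma stem cells, was at 25.3, 7.19 and 8.07 FPKM in AstroEGFR* and at 2.81, 6.86, 1.37 and 5.0 FPKM in PT. Its groups also did not overlap, with PT2 at 6.86 FPKM close to AstroEGFR*2 at 7.19 FPKM, and the log2 fold change was -1.46 ± 0.55 (adjusted p = 0.309 in limma).

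The hydroxylases differed from each other. Egln3, itself a HIF target that closes a feedback loop on HIF, was at 3.28, 6.25 and 6.45 FPKM in AstroEGFR* and at 39.2, 13.4, 15.2 and 15.0 FPKM in PT. All 4 PT lay above all AstroEGFR*, with PT1 far above the other 3, and the log2 fold change was 1.68 ± 0.42 (adjusted p = 0.125 in limma). Egln1, the main oxygen sensor of the family, was at 29.8 to 47.0 FPKM in AstroEGFR*, at 78.1 and 77.8 FPKM in PT1 and PT4 and at 18.4 and 25.3 FPKM in PT2 and PT3. Its PT libraries thus fell on both sides of AstroEGFR*, the 2 libraries of batch 1 above and the other 2 below, and Egln2 followed the same split at 32.9 and 38.2 against 16.8 and 17.8 FPKM. Vhl was at 17.4 to 19.6 FPKM in AstroEGFR* and at 29.2, 37.0, 21.7 and 34.4 FPKM in PT, without overlap (log2 fold change 0.66 ± 0.24, adjusted p = 0.295 in limma). Arnt was at 8.15 to 22.3 FPKM in AstroEGFR* and at 12.1 to 22.9 FPKM in PT, where only PT3 lay above the AstroEGFR* range.

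Of the transporters that bring glucose into the cell, Slc2a1 (GLUT1) was at 30.9, 24.3 and 38.2 FPKM in AstroEGFR* and at 54.9, 55.8, 72.5 and 34.0 FPKM in PT. PT4 lay inside the AstroEGFR* range and the other 3 above it (log2 fold change 0.76 ± 0.31, adjusted p = 0.335 in limma), while each PT exceeded the AstroEGFR* of its own batch. Slc2a3 (GLUT3) ranged from 15.3 to 45.8 FPKM in AstroEGFR* and from 6.05 FPKM in PT2 to 91.5 FPKM in PT1, a spread within PT that was wider than any difference between the groups.

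The enzymes that open glycolysis differed from each other. Gpi1, which turns glucose-6-phosphate into fructose-6-phosphate, was at 47.8, 56.7 and 109 FPKM in AstroEGFR* and at 250, 144, 416 and 172 FPKM in PT. All PT lay above all AstroEGFR*, with a log2 fold change of 1.74 ± 0.45 (adjusted p = 0.136, and 0.0277 with the batch block, both in limma). Hexokinase, which traps glucose in the cell, has 2 members here. Hk1 was at 37.3 to 62.2 FPKM in AstroEGFR* and at 66.2 to 125 FPKM in PT without overlap (log2 fold change 0.74 ± 0.31, adjusted p = 0.354 in limma). Hk2, the form linked to aerobic glycolysis of tumours, was at 17.1, 22.6 and 13.5 FPKM in AstroEGFR* and at 20.3, 16.3, 20 and 11.9 FPKM in PT, a log2 fold change of -0.05 ± 0.28 (adjusted p = 0.964 in limma), whose sign turned when AstroEGFR*2 or PT4 was left out or PT1 and PT4 were averaged.

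Phosphofructokinase, the committed step, differed by isoenzyme. The liver form Pfkl was at 31.6, 36.9 and 58.4 FPKM in AstroEGFR* and at 166, 55.8, 104 and 92.5 FPKM in PT, with only PT2 inside the AstroEGFR* range (log2 fold change 1.23 ± 0.40, adjusted p = 0.231 in limma). The platelet form Pfkp was at 35.6, 47.6 and 78.5 FPKM in AstroEGFR* and at 28.2, 7.77, 17.3 and 21.3 FPKM in PT. Its groups did not overlap and PT2 was lowest, with a log2 fold change of -1.53 ± 0.46 (adjusted p = 0.184 in limma). The muscle form Pfkm overlapped, at 40.7 to 53.4 FPKM in AstroEGFR* and at 30.7 to 58.8 FPKM in PT.

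Pfkfb3 makes fructose-2,6-bisphosphate, the strongest activator of phosphofructokinase, and was the member with the steadiest difference. It was at 3.90, 4.92 and 4.18 FPKM in AstroEGFR* and at 12, 13.8, 15.2 and 12.3 FPKM in PT. No AstroEGFR* value came near the lowest PT value, and the 4 PT differed little from each other, PT2 included. The log2 fold change was 1.42 ± 0.22 (adjusted p = 0.0285 in limma). The difference kept its size when any 1 library was left out, from 1.36 to 1.5, but the adjusted p was then 0.0602 to 0.142, so the call needed all 7 libraries. Pfkfb4, which makes the same molecule, was at 3.0 to 3.51 FPKM in AstroEGFR* and at 1.36 to 2.89 FPKM in PT, without overlap and in the opposite direction.

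**Figure D3:**
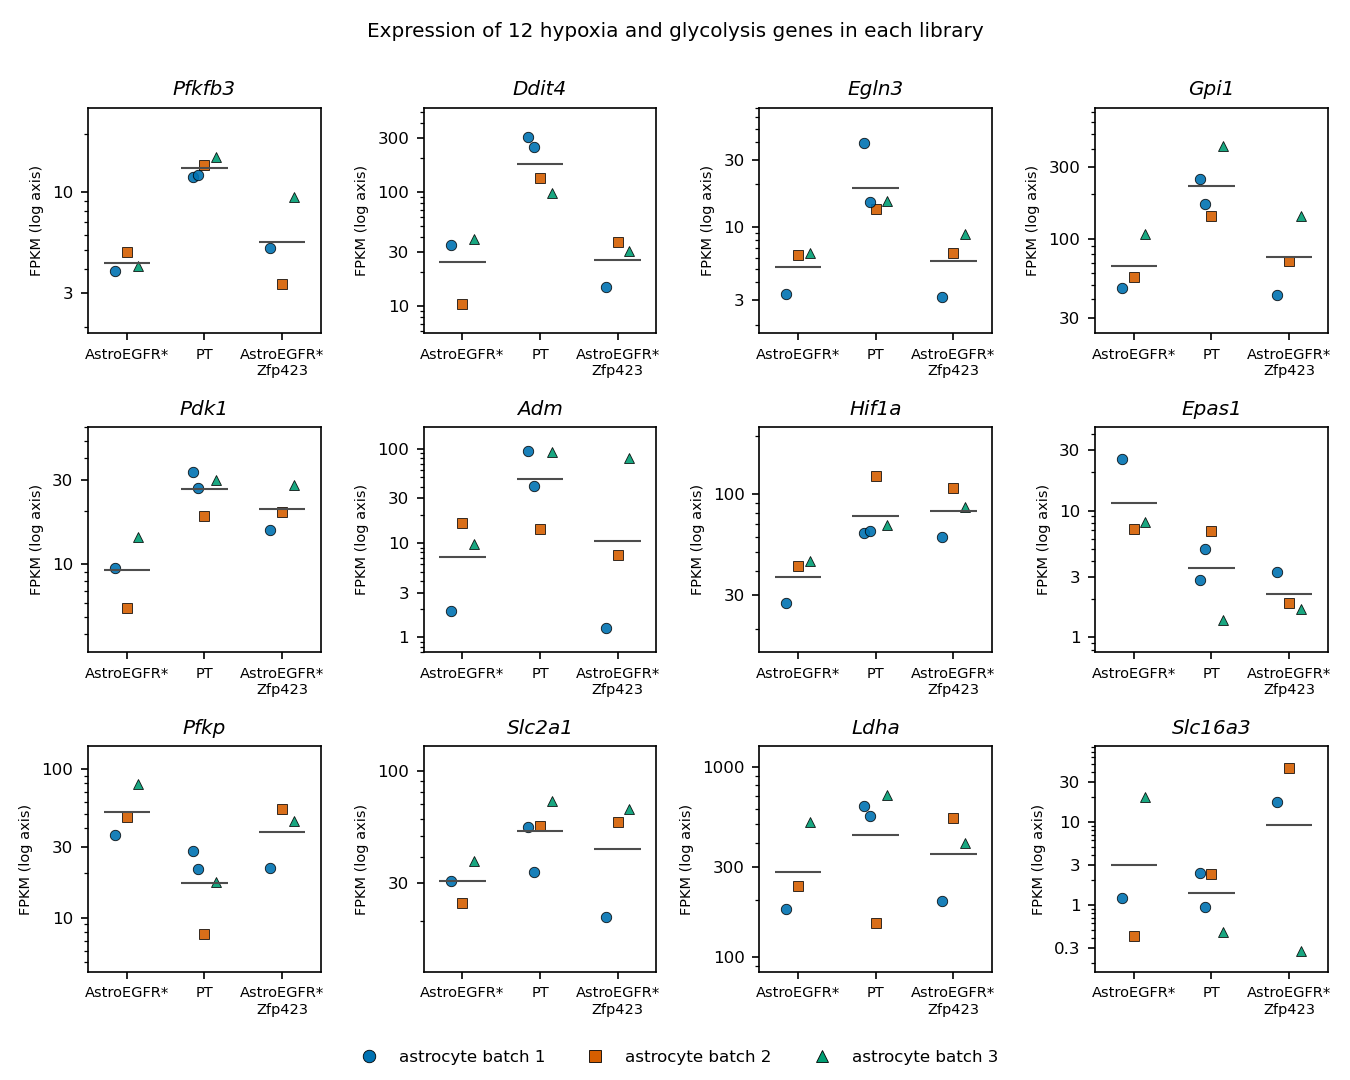
FPKM of 12 genes (log axis, own scale in each panel) in each library of AstroEGFR*, PT and AstroEGFR* Zfp423, with colour and symbol for the astrocyte batch and a line at the group mean of log2(FPKM + 1). Pfkfb3, Ddit4, Egln3, Gpi1, Pdk1 and Hif1a have all 4 PT points above all 3 AstroEGFR* points, while the batch 2 point of PT is lowest for Gpi1, Pdk1, Adm, Pfkp and Ldha and highest for Hif1a.

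The enzymes further down the pathway overlapped between the groups. Pgk1, which makes the first ATP of the pathway, was at 31.0, 23.7 and 52.9 FPKM in AstroEGFR* and at 105, 29.3, 100 and 84.2 FPKM in PT. Pgam1 was at 8.97 to 31.0 FPKM in AstroEGFR* and at 35.2, 6.60, 36.4 and 38.6 FPKM in PT, and Tpi1 was at 185 to 610 FPKM against 538, 171, 657 and 422 FPKM. For all of these PT2 was the lowest PT library and lay within or below the AstroEGFR* range, and for Tpi1 PT1 and PT4 lay within it too. Aldoa was at 288 to 457 FPKM in AstroEGFR* and at 438, 600, 974 and 410 FPKM in PT, with PT1 and PT4 inside the AstroEGFR* range. Pkm2, the symbol under which the table lists pyruvate kinase M with both of its splice forms in 1 value, was at 360 to 564 FPKM in AstroEGFR* and at 329 to 766 FPKM in PT. Eno1 and Eno2 were at 1.74 to 15.6 and 4.93 to 5.44 FPKM in AstroEGFR* and at 2.69 to 31.3 and 2.74 to 14.4 FPKM in PT. Several of these enzymes have many near-identical copies in the mouse genome, which makes the values of Eno1 and Gapdh uncertain, the latter listed at 0.0106 to 50.1 FPKM over the 10 libraries.

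At the fork of pyruvate, Pdk1, the kinase that shuts pyruvate dehydrogenase, was at 9.50, 5.63 and 14.3 FPKM in AstroEGFR* and at 33.5, 18.7, 30 and 27.2 FPKM in PT. All PT lay above all AstroEGFR*, with a log2 fold change of 1.44 ± 0.34 (adjusted p = 0.110, and 0.0290 with the batch block, both in limma). Ldha, the lactate dehydrogenase subunit that favours lactate, was at 179, 237 and 514 FPKM in AstroEGFR* and at 623, 151, 713 and 552 FPKM in PT. PT2 lay below every AstroEGFR* library and the other 3 PT above, and the log2 fold change was 0.65 ± 0.63 (adjusted p = 0.726 in limma). Ldhb, the subunit that favours pyruvate, was at 129, 96.9 and 34.7 FPKM in AstroEGFR* and at 25.9 to 67.5 FPKM in PT. Of the monocarboxylate transporters that carry lactate across the membrane, Slc16a1 (MCT1) was at 25.4 to 35 FPKM in AstroEGFR* and at 37.8, 60.9, 62.5 and 42.2 FPKM in PT without overlap (log2 fold change 0.78 ± 0.27, adjusted p = 0.263 in limma). Slc16a3 (MCT4), the HIF-induced exporter, was at 1.20, 0.422 and 19.8 FPKM in AstroEGFR* and at 2.41, 2.38, 0.479 and 0.945 FPKM in PT. AstroEGFR*3 alone set the sign of its log2 fold change, which was -0.75 ± 0.90 (adjusted p = 0.790 in limma) and 0.44 without that library.

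Of the carbonic anhydrases that export acid, both were highest in PT3. Car9, a marker of hypoxic tumour regions, was at 0.293, 1.61 and 2.51 FPKM in AstroEGFR* and at 2.84, 2.38, 34.8 and 0.145 FPKM in PT (log2 fold change 1.07 ± 1.07, adjusted p = 0.734 in limma). Without PT3 its log2 fold change was 0.11. Car12 was at 0.0432 to 0.216 FPKM in AstroEGFR* and at 0.483, 0.134, 7.26 and 0.916 FPKM in PT, the only library over 1 FPKM being PT3, which also had the highest Car9. PT3 was 1 of the 2 shallow libraries.

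Among the other HIF targets, the 2 with the highest fold changes were Ddit4 and Adm. Ddit4 (REDD1), a stress-induced inhibitor of mTORC1, was at 33.9, 10.4 and 38.8 FPKM in AstroEGFR* and at 306, 132, 98.4 and 247 FPKM in PT. Even the lowest PT lay above all AstroEGFR*, with a log2 fold change of 2.83 ± 0.56 (adjusted p = 0.0666, and 0.0375 with the batch block, both in limma). Adm, the vasodilator peptide adrenomedullin, was at 1.92, 16.3 and 9.72 FPKM in AstroEGFR* and at 95.2, 14.2, 93.7 and 40.4 FPKM in PT. PT2 lay below AstroEGFR*2, the library of its own batch, and the log2 fold change was 2.59 ± 0.81 (adjusted p = 0.213 in limma).

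The mitophagy receptor Bnip3 was at 21.2, 14.8 and 25.5 FPKM in AstroEGFR* and at 61.0, 21.2, 72.9 and 46.7 FPKM in PT (log2 fold change 1.16 ± 0.43, adjusted p = 0.305 in limma), and its relative Bnip3l at 17.5 to 49.5 and 25.5 to 43.3 FPKM. Kdm3a, a histone H3K9 demethylase, was at 13.1, 14.1 and 7.99 FPKM in AstroEGFR* and at 30.5, 18.9, 23.1 and 25.8 FPKM in PT without overlap (log2 fold change 1.02 ± 0.28, adjusted p = 0.149 in limma). Ankrd37, a small gene widely used as a HIF reporter, was at 0.647, 0.590 and 2.85 FPKM in AstroEGFR* and at 7.24, 0.820, 8.04 and 5.62 FPKM in PT, where again only PT2 lay in the AstroEGFR* range. Ndrg1, a stress-induced gene that also marks myelinating glia, went the other way, at 94.0, 28.8 and 42.7 FPKM in AstroEGFR* and at 47.2, 14.6, 18 and 23.0 FPKM in PT (log2 fold change -1.04 ± 0.51, adjusted p = 0.426 in limma). The collagen prolyl hydroxylases P4ha1 and P4ha2 and the regulators Bhlhe40, Mxi1 and Higd1a overlapped between the groups, with log2 fold changes from 0.04 for P4ha2 to 0.64 for P4ha1.

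HIF binds the core letters ACGTG or GCGTG, and the sequence before the start site was therefore read for the members with the largest differences. RefSeq windows of 300 bases (250 before and 50 after the start, build GRCm38.p6) were held for 38 of the 43 members. Searched on both strands, ACGTG or GCGTG was present in 33 of the 38 genes (86.8%), against 46.7% of all 27025 genes with a window. A gene counted if any of its windows matched, and by window the shares were 76.4% of 55 and 43.8% of 32851. ACGTG alone was in 63.2% of the members and 21.8% of all genes, GCGTG in 63.2% and 35.2%, and the palindrome CACGTG, which holds ACGTG on either strand and is also the core of MYC and USF sites, in 18.4% and 8.09%. Many members are known for HIF sites in their promoters, which is part of why they are on such a list. The windows differ in base composition, which was not matched, nor was the number of windows per gene. A match is a description of letters and not a site. The stretches below are shown for the 6 members that passed the test or had the largest differences and held a match before their start, 5′ to 3′ along the gene, with the matches and their reverse complements (CACGT and CACGC) in capitals and annotated exons left out.
Pfkfb3, chr2:11502118-11502232, minus strand: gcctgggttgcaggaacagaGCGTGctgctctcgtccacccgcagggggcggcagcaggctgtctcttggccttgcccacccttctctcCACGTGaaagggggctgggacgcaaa
Ddit4, chr10:59951861-59951977, minus strand: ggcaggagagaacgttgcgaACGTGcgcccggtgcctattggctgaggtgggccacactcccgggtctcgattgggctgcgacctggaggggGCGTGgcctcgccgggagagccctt
Adm, chr7:110627547-110627627, plus strand: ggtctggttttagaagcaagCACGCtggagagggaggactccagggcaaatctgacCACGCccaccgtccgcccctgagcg
Egln3, chr12:54204079-54204123, minus strand: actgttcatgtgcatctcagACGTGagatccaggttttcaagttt
Pfkp, chr13:6648778-6648927, minus strand: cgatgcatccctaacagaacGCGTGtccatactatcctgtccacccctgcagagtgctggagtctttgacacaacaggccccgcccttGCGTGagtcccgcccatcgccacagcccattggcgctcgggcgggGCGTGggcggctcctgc
Pdk1, chr2:71873126-71873170, plus strand: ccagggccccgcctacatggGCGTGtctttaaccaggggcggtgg
Pfkfb3, higher in every PT, and Pfkp, lower in every PT, each held 3 matches in the stretch when both strands of CACGTG are counted. Gpi1, with the third largest positive log2 fold change, held none in its window.

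PT2 stood apart within PT. It was the lowest of the 4 PT for 23 of the 43 members, against 31.6% of the features expressed in PT, and this count was also 23 after median-ratio scaling. PT1 was lowest for 3 members (20.7% of features), PT3 for 8 (26.0%) and PT4 for 9 (21.7%). The 23 members included Egln1, Egln2, Egln3, Gpi1, Pfkl, Pfkp, Tpi1, Pgk1, Pgam1, Pkm2, Ldha, Pdk1, Bnip3, Ankrd37 and Adm. Outside this count were the glycolytic enzymes Hk1, Hk2, Pfkm, Aldoa, Eno1 and Eno2, and also Car9 and P4ha1. At the same time PT2 had the highest Hif1a of the 10 libraries at 124 FPKM, and it shared the level of the other PT for Pfkfb3, Slc2a1 and Ddit4. Without PT2, the median log2 fold change of the members was 0.69, 16 members were higher and 2 lower at an unadjusted p under 0.05 (12.1% of all features in either direction, with a median of 0.02), and 0 passed the adjusted test. PT2 is the only PT of astrocyte batch 2, so culture and batch cannot be told apart.

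For related enzymes, the share of each in the summed FPKM of its family was read within a library, as a description with no test. Hif1a made up 51.6% to 85.5% of Hif1a and Epas1 in AstroEGFR*, 92.8% to 98% in PT and 94.8% to 98.3% in AstroEGFR* Zfp423. Pfkl made up 26.8% to 32.9% of the phosphofructokinases in AstroEGFR* and 46.9% to 68.4% in PT, while Pfkp went from 31.4% to 44.2% in AstroEGFR* to 6.52% to 12.4% in PT. Pfkfb3 made up 54.4% to 62.2% of Pfkfb3 and Pfkfb4 in AstroEGFR* and 80.5% to 91.8% in PT. These shares did not overlap between AstroEGFR* and PT. The share of Ldha in both lactate dehydrogenase genes, 58.1% to 93.7% in AstroEGFR* and 85.4% to 93.6% in PT, did overlap, as did that of Hk1 in both hexokinases, 72.3% to 78.4% and 76.8% to 88.6%.

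**Figure D4:**
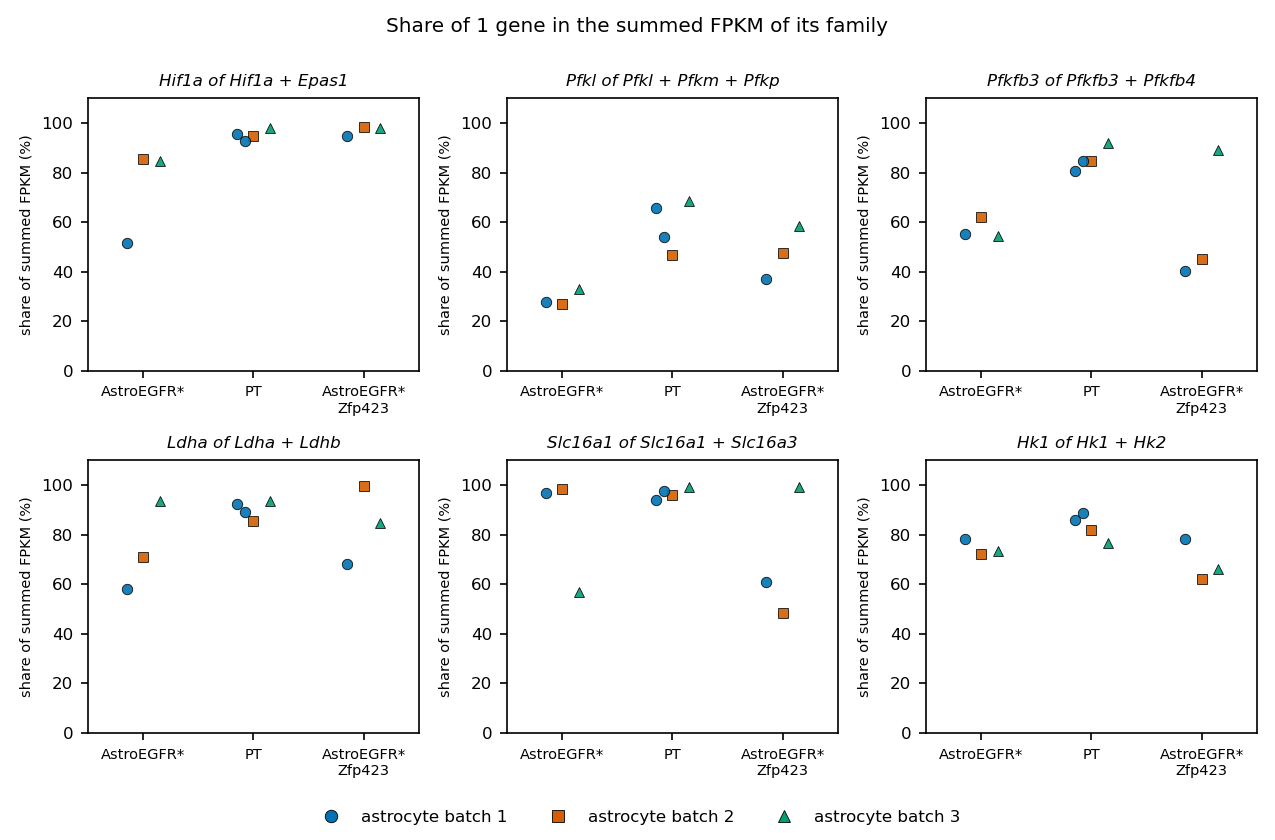
Share of 1 gene in the summed FPKM of its family (percent, axis from 0) in each library of the 3 groups, with colour and symbol for the astrocyte batch. The PT points lie above all AstroEGFR* points for Hif1a, Pfkl and Pfkfb3 and overlap them for Ldha, Slc16a1 and Hk1, and the Slc16a1 share is lowest in AstroEGFR*3, AstroEGFR*1 Zfp423 and AstroEGFR*2 Zfp423.

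The lists of neighbouring pathways, 109 symbols of which 105 were found and 93 tested, held 3 genes that passed in PT against AstroEGFR*, Vegfa and Pygb among them. Vegfa, the HIF-induced angiogenic factor, rose, at 20, 23.0 and 27.1 FPKM in AstroEGFR* and at 91.3, 216, 162 and 93.5 FPKM in PT (log2 fold change 2.45 ± 0.36, adjusted p = 0.0258 in limma). Pygb, the brain glycogen phosphorylase, fell from 108, 64.9 and 94.1 FPKM to 24.4, 15.9, 18.5 and 35.5 FPKM (log2 fold change -1.90 ± 0.33, adjusted p = 0.0444 in limma). The call of Vegfa was lost when any 1 AstroEGFR* library or PT3 was left out, and that of Pygb when any 1 of the 7 was. The call of Pygb was also lost without the filter on low values.

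By list, 28 other hypoxia target genes were tested with 1 higher and 1 lower, 7 genes of gluconeogenesis and glycogen with 0 higher and 1 lower, and 13 other HIF pathway genes, 18 other glycolysis and pyruvate genes, 8 genes of the pentose phosphate pathway and 19 of the TCA cycle with 0 each. At an unadjusted p under 0.05 these lists held 13 higher and 8 lower genes in all, 9 and 4 of them in the hypoxia targets and 0 and 0 in the TCA cycle, of 93 tested and against 5.88% and 7.69% of all features. These counts hold genes that passed the filter only through the group where they were high (Stc1 and Pygm in PT, Lox, Edn1 and Angptl4 in AstroEGFR*). The median log2 fold change was 0.64 for the hypoxia targets, 0.48 for the 7 tested genes of gluconeogenesis and glycogen (Pygm, which passed the filter only through PT, among them), 0.27 for the HIF pathway genes, 0.23 for the TCA cycle, 0.07 for the pentose phosphate pathway and 0.06 for the other glycolysis genes, against 0.58 for the 43 members.

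The second comparison set AstroEGFR* Zfp423 against AstroEGFR*, with the batch number of the labels as a block. The series holds no empty-vector culture, so infection and Zfp423 cannot be told apart. In batches 2 and 3, correlations between the libraries did not follow the numbers of the labels. Deviations from the group means correlated at 0.241 between AstroEGFR*1 and AstroEGFR*1 Zfp423, but at -0.111 and -0.262 for the same numbers 2 and 3, while AstroEGFR*2 correlated at 0.224 with AstroEGFR*3 Zfp423 and AstroEGFR*3 at 0.308 with AstroEGFR*2 Zfp423. Beside these correlations, Zfp423 was highest in the library labelled AstroEGFR*3 Zfp423, at 105 FPKM, and the progenitor factor Sox2 was at 80.7, 3.15 and 141 FPKM in AstroEGFR*1 to 3 Zfp423 against 266, 114 and 74.4 FPKM in AstroEGFR*. AstroEGFR*3 and AstroEGFR*2 Zfp423 were both high in summed fibroblast and meninges markers, at 5550 and 6550 FPKM. AstroEGFR*1 Zfp423 was too, at 4590 FPKM, and correlated at 0.00747 with AstroEGFR*3. Neither an exchange of numbers nor the part of these markers in the correlations was tested. The counts by number below take the labels as they are. No member passed (0 of 42 tested, against 0.00% of 12366 features, since 0 features passed in limma), and Car12 was under the filter. At an unadjusted p under 0.05, 3 members were higher, Hif1a, Pdk1 and Ankrd37, against 3.30% of all features, and 1 was lower, Epas1, against 4.08%. The log2 fold change was above 0 in 29 of the 42 members, against 51.7% of all features, and its median was 0.15 over the members and 0.02 over all features. All 3 infected cultures lay above the AstroEGFR* of the same number for 9 members, Hif1a, Vhl, Pfkl, Aldoa, Pkm2, Pdk1, Bnip3, Ankrd37 and Kdm3a, against 16.3% of all features, and below them for 3 members, Epas1, Egln1 and Egln2, against 15.2%.

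Hif1a was at 59.7, 108 and 85.3 FPKM in AstroEGFR*1 to 3 Zfp423, all above all 3 AstroEGFR* (log2 fold change 1.11 ± 0.22, adjusted p = 0.628 in limma). Epas1 was at 3.26, 1.88 and 1.68 FPKM, all below all 3 AstroEGFR* (log2 fold change -1.96 ± 0.35, adjusted p = 0.628 in limma). Pdk1 was at 15.7, 19.8 and 28.1 FPKM (log2 fold change 1.08 ± 0.29) and Ankrd37 at 1.91, 3.75 and 6.06 FPKM (1.09 ± 0.38), both with an adjusted p of 0.628 in limma. The comparison with PT shares the AstroEGFR* libraries, so the like sign of these 4 genes in both comparisons is not independent.

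Other members varied more among the infected cultures than between the groups. Slc2a3 was at 5.27, 1.94 and 131 FPKM (log2 fold change -0.90 ± 1.44, adjusted p = 0.875 in limma), and Slc16a3 at 17.2, 44.8 and 0.283 FPKM (1.34 ± 1.91, adjusted p = 0.859 in limma). Ldhb was at 92.6, 1.25 and 71.3 FPKM (-1.63 ± 1.36, adjusted p = 0.751 in limma). The low value was that of AstroEGFR*2 Zfp423, which also had the lowest summed astrocyte markers of all 10 libraries, at 59.7 FPKM. The 3 libraries with the highest Slc16a3 of all 10, AstroEGFR*3, AstroEGFR*1 Zfp423 and AstroEGFR*2 Zfp423, were also those with the highest summed fibroblast and meninges markers, at 5550, 4590 and 6550 FPKM. Their summed microglia and macrophage markers were the highest too, at 38.6, 463 and 287 FPKM. AstroEGFR*3 Zfp423 was high for several hypoxia targets, with Adm at 79.6 FPKM against 1.25 and 7.46 FPKM in the other 2, Car9 at 12.9 FPKM against 0.443 and 0.533 FPKM, and Hk2 at 35.4 FPKM against 11.9 and 17.6 FPKM. Without batch 2 the signs of Slc2a3, Slc16a3, Ldha and Ldhb turned.

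For the other genes with values in every comparison, Pfkfb3 was at 5.12, 3.37 and 9.44 FPKM in AstroEGFR* Zfp423 (log2 fold change 0.30 ± 0.39), Egln3 at 3.13, 6.43 and 8.89 FPKM (0.13 ± 0.28) and Slc2a1 at 20.9, 58.2 and 66.3 FPKM (0.49 ± 0.42). Ldha was at 197, 542 and 398 FPKM (0.32 ± 0.43), and Hk2 and Car9 had log2 fold changes of 0.16 ± 0.45 and 0.46 ± 0.67. The adjusted p in limma was 0.754 to 0.929 for these 6 genes. In the neighbouring pathways 0 of 95 genes passed, and at an unadjusted p under 0.05 the 3 largest positive log2 fold changes were those of Ero1l, an oxidase of the endoplasmic reticulum (2.16 ± 0.75), Pck2 (1.81 ± 0.51) and Lonp1 (1.56 ± 0.46), and the only negative one that of Pdk2 (-0.99 ± 0.28), all with an adjusted p of 0.628 in limma.

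Over all 10 libraries, all 4 PT lay above all 6 AstroEGFR* and AstroEGFR* Zfp423 libraries for 4 of 42 members, Egln3, Gpi1, Pfkfb3 and Ddit4, against 2.92% of 12476 features, and below all 6 for 0 members, against 3.13%. The margin of Gpi1 was small, with PT2 and AstroEGFR*3 Zfp423 both at 144 FPKM after rounding, while for Ddit4 the lowest PT was at 98.4 FPKM and the highest of the 6 others at 38.8 FPKM. Hif1a was not among them, since 108 FPKM in AstroEGFR*2 Zfp423 lay above 3 of the 4 PT.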

How the data were processed

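RNAseq of 10 mouse libraries was analysed, 3 AstroEGFR*, 4 PT and 3 AstroEGFR* Zfp423. Per the labels, the authors deposited FPKM per gene made with TopHat 1.3 and Cuffnorm on build mm9. The labels name a TruSeq kit and the study's methods a stranded ribosomal RNA depletion kit. Features averaging 1 FPKM or more in the compared libraries were tested on log2(FPKM + 1) with limma 3.58.1 (R 4.3.3, trended empirical Bayes) with Benjamini-Hochberg adjustment over all features and a threshold of 0.05, so fold changes understate those of low genes. PT was compared with AstroEGFR* without a block and, as an alternative, with the astrocyte batch as a block, and AstroEGFR* Zfp423 with AstroEGFR* with the block. The pairing comes from the study's account of which astrocyte batch gave each culture. Deviations from group means correlated at 0.346 to 0.499 between each PT and the AstroEGFR* of its batch, but at 0.241, -0.111 and -0.262 for batches 1 to 3 of AstroEGFR* Zfp423, whose block follows the numbers in the labels. Libraries are labelled as separate cultures, of which PT1 and PT4 share a batch, so p-values measure the spread between these cultures.

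The members and lists were chosen with earlier results of these data known. Full values are given for members past the threshold, the 3 largest positive and negative differences in each comparison and 10 listed genes (Hif1a, Epas1, Egln3, Slc2a1, Hk2, Pfkfb3, Ldha, Pdk1, Slc16a3 and Car9), and for the genes of other lists that passed or, with 0 passing, the 3 largest in each direction at an unadjusted p under 0.05. Members at an unadjusted p under 0.05 in PT were added after their values were seen. A gene of the other lists is not reported here. Scripts were tested on simulated data. Depth is unknown, which leaves the precision of single FPKM values unknown.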

Additional observations from a re-analysis of the deposited data

Results flagged for a closer look

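In 6 of the 43 members 1 of the 4 PT lay far from the other 3, with a gap to the nearest that took up most of the whole range on the log2 scale (Dixon's criterion). Chance flags about 1 in 20 such groups. The share of all features so flagged was not computed, so the count cannot be called particular to the members. PT2 was high for Hif1a (124 FPKM against 62.8 to 69.0) and low for Pgam1 (6.60 FPKM against 35.2 to 38.6) and Ldha (151 FPKM against 552 to 713). PT3, a shallow library, was high for Arnt (22.9 FPKM against 12.1 to 13.5) and low for Pfkm (30.7 FPKM against 55.5 to 58.8). PT1 was high for Egln3 (39.2 FPKM against 13.4 to 15.2).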

How the results depend on the processing

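In PT against AstroEGFR*, the median log2 fold change of the members stayed above 0 under all alternatives run, from 0.40 without PT3 to 0.77 without AstroEGFR*3, as did that of AstroEGFR* Zfp423, from 0.12 to 0.25. Counts of calls did not. The batch block gave 475 features and 4 members in place of 152 and 1, a fit of all 10 libraries gave 62 features and 0 members, PT1 and PT4 averaged gave 59 and 0, leaving out both batch 3 libraries gave 8 and 0, and the replicate block on the same 5 libraries, an alternative added after the data were seen, gave 5 and 0. Leaving out 1 library at a time gave 7 (without AstroEGFR*1) to 123 features (without AstroEGFR*2) and 0 members. For AstroEGFR* Zfp423, 2 features passed without the replicate block, and 0 to 51 features with 1 batch left out, the 51 without batch 2. Without the filter on low values the call of Pygb in PT was lost (adjusted p = 0.0683 in limma). The median-ratio scaling, the pseudocount of 0.1 and no trend changed no call of a named gene. The replicate block changed no other call of a named gene in PT. Signs turned for Hk2 in PT (0.0014 with PT1 and PT4 averaged, -0.22 to 0.13 with 1 library left out) and Slc16a3 in PT (0.67 without batch 3, 0.66 with the block too, -1.5 to 0.44 with 1 library left out). In AstroEGFR* Zfp423, with 1 batch left out, they turned for Slc2a3 (-2.85 to 0.65), Slc16a3 (-0.49 to 4.03), Ldha (-0.12 to 0.67), Ldhb (-2.96 to 0.27), Egln3 (-0.0069 to 0.22), Hk2 (-0.42 to 0.49) and Pfkfb3 (-0.060 to 0.67). The cause was not tested. The count of members with all PT above all 6 astrocyte libraries was 4 under the median-ratio scaling too.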

Other observations

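Glycogen genes outside the 43 members gave values on either side in PT. Glycogen phosphorylase Pygb was lower in PT (above), while Gys1, the glycogen synthase, was at 12.1, 10.7 and 19.2 FPKM in AstroEGFR* and at 34.1, 21.9, 31.2 and 24.5 FPKM in PT (log2 fold change 0.97 ± 0.28, adjusted p = 0.175 in limma). The muscle phosphorylase Pygm was at 0.0491, 0.372 and 0.288 FPKM in AstroEGFR* and at 1.28, 28.6, 2.46 and 1.91 FPKM in PT, and passed the filter on the mean only through PT. Ugp2, which makes the UDP-glucose used by the synthase, was at 75.5, 61.3 and 66.5 FPKM in AstroEGFR* and at 50.5, 45.6, 46.0 and 52.3 FPKM in PT (log2 fold change -0.47 ± 0.20, adjusted p = 0.368 in limma). Pgm2, a phosphoglucomutase, was at 20.4, 21.7 and 35.3 FPKM in AstroEGFR* and at 62.8, 64.6, 57.0 and 54.6 FPKM in PT (1.22 ± 0.25, adjusted p = 0.0733 in limma). The branching enzyme Gbe1 was at 5.31, 7.57 and 8.27 FPKM in AstroEGFR* and at 13.0, 28.7, 35.8 and 7.57 FPKM in PT (1.26 ± 0.51, adjusted p = 0.339 in limma). Siah2, a ubiquitin ligase that targets prolyl hydroxylases, was at 5.18 to 7.12 FPKM in AstroEGFR* and at 12.8, 17.3, 18.2 and 16.2 FPKM in PT (1.22 ± 0.23, adjusted p = 0.0604 in limma). These 6 genes were chosen after their values were seen.

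Values were also listed for near-identical copies of glycolytic genes. Aldoart1 and Aldoart2, retrotransposed copies of Aldoa, were listed at 35.2 to 100 and 12.5 to 78.1 FPKM over the 10 libraries. Gapdh, a parent gene with many copies, was listed at 0.0204, 1.40 and 2.52 FPKM in AstroEGFR*, at 0.0206, 1.22, 50.1 and 0.0106 FPKM in PT and at 1.16, 2.47 and 2.33 FPKM in AstroEGFR* Zfp423. How fragments were divided between a gene and its copies is not given in the sources used here.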
